A study of Macaca fascicularis with 56 samples.

Results

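The genes described here encode the proteins of the cytosolic ribosome. They were read in the blood of cynomolgus macaques given the peptide LR12, a scrambled form of it or vehicle, in a series whose title names an endotoxin challenge. A gene was taken as a member if a probe set of the human HG-U133 Plus 2 array listed it as its only gene and its symbol was that of a ribosomal protein of the small or the large subunit, the stalk proteins included. Pseudogenes, like-genes and the kinases of RPS6 were left out. Each gene was read by its brightest probe set among those above the array median on at least 4 arrays. The rule used no comparison between groups. It found 52 members, 20 of the small subunit and 32 of the large subunit, among 16020 genes read in the same way. All 52 lay above the array median on all 56 arrays. A further 15 ribosomal protein genes had only probe sets listing several symbols and were not read one by one.

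The series holds 56 arrays of whole blood from 14 Macaca fascicularis, each sampled at 0, 2, 4 and 8 h. LR12 was given to 6 animals (Y31309 to Y31314), the peptide control to 4 (Y31305 to Y31308) and vehicle to 4 (Y31301 to Y31304), and each animal gave 1 array at each hour. The series title names the challenge and both peptides, with the peptide control as scrambled LR12. Whether the vehicle animals were challenged is not given in the labels, nor are the doses or how the 0 h sample stood to the challenge, so a change from 0 h within an arm carries time, repeated bleeding and any challenge as well as the treatment. LR12 is a short peptide derived from TREM-like transcript 1 that blocks TREM-1, a receptor on myeloid cells that amplifies inflammatory signals.

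The ribosome is built from a small subunit, which holds the mRNA and decodes it, and a large subunit, which joins the amino acids. Most of its proteins are needed in equal numbers, and the mRNAs of ribosomal proteins are among the most abundant in most cells. In mammals the mRNAs of ribosomal proteins begin with a short pyrimidine tract, the TOP element, through which mTOR signalling and LARP1 control their translation and stability. In blood, resting lymphocytes hold much of their mRNA as ribosomal protein mRNA, and mature neutrophils hold little.

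The deposited values were linear intensities scaled by the submitters to one trimmed mean on every array, and all changes below are differences of log2 intensity. Medians of the linear values were between 12.9 and 23.5 per array. Bacterial control probe sets split the arrays into 24 with high and 32 with low control signal, and the 18S ribosomal RNA control probe sets were higher on the 24 (8.30 to 10.94 log2, against 6.13 to 7.75). Of the 24, LR12 held 1, 1, 2 and 3 arrays at 0, 2, 4 and 8 h, the peptide control 3, 1, 4 and 3, and vehicle 2, 0, 2 and 2. Adjusted for arm and hour, the median member differed by -0.0129 log2 on these arrays, against -0.0597 for all genes, with 2 members higher and 3 lower by limma, against 9.52% and 19.3% of all genes. Human probes were used on macaque RNA, and 42 of the 52 members were read by probe sets marked as matching several transcripts. Levels are therefore compared between groups gene by gene. Where genes are called bright or dim, or signal is summed over genes, probe intensity is described, which is no measure of relative mRNA amounts. Calls use an adjusted p below 0.05 (limma over all 16020 genes, Benjamini-Hochberg, two-sided).

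Of the members, 50 were bright, with means over all arrays between 11.15 and 13.91 log2. RPL36A and RPL39 were dim, with means of 6.91 and 6.32. Most members moved together from array to array. The correlation with the median of the other members, over 56 arrays that share animals, scaling and hour, was 0.917 for RPS18, 0.899 for RPL6 and 0.887 for RPL30, of the small, large and large subunit in turn. It was lowest for RPL39 (0.0324), which lines the exit tunnel, for RPLP1 (0.0499), a stalk protein that recruits translation factors, and for RPS7 (0.0582), a small subunit protein that can also bind MDM2.

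In the LR12 arm the median of the 52 members on an array averaged 13.07 ± 0.07, 13.09 ± 0.26, 12.73 ± 0.14 and 12.72 ± 0.20 log2 at 0, 2, 4 and 8 h (SD, n = 6). Its range was 12.59 to 12.93 at 4 h against 12.96 to 13.14 at 0 h, so the hours did not overlap. At 8 h it ran from 12.52 to 13.01 and overlapped with 0 h through animal Y31310. In animal Y31313 the median member had already changed by -0.45 log2 at 2 h. In the peptide control it averaged 13.15 ± 0.09, 13.25 ± 0.13, 12.86 ± 0.21 and 12.79 ± 0.25 (SD, n = 4). In vehicle it averaged 13.10 ± 0.09, 13.03 ± 0.25, 12.77 ± 0.12 and 12.95 ± 0.18 (SD, n = 4). On the deposited scale all 3 arms were thus lower at 4 h than at 0 h, while with arrays centred on their median the median member's change at 4 h was -0.05 in LR12, -0.02 in the peptide control and -0.0039 in vehicle.

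The share of the summed intensity of all 16020 genes taken by the members was also lower at 4 h than at 0 h in all 3 arms. It was 4.93 ± 0.10%, 4.49 ± 0.45%, 3.76 ± 0.26% and 3.82 ± 0.31% in LR12 at 0, 2, 4 and 8 h (SD, n = 6). In the peptide control it was 5.23 ± 0.28%, 5.11 ± 0.32%, 4.22 ± 0.40% and 4.28 ± 0.48%, and in vehicle 4.97 ± 0.29%, 4.67 ± 0.46%, 4.13 ± 0.22% and 4.52 ± 0.43% (SD, n = 4 each). At 4 h the LR12 range of 3.42 to 4.16% lay below its 0 h range of 4.78 to 5.08%.

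Member by member, most falls in LR12 came at 4 and 8 h. At 2 h 5 members fell and 2 rose, against 21.9% of all genes that fell and 10.1% that rose. At 4 h 27 of 52 fell and 1 rose, against 26.0% and 10.8% of all genes. At 8 h 28 fell and 1 rose, against 20.4% and 8.65% of all genes. The same 26 members fell at both later hours. The large subunit gave 18 of its 32 members at each hour, and the small subunit 9 of 20 at 4 h and 10 of 20 at 8 h. In all 6 animals 28 members were lower at 4 h than at 0 h and 27 were lower at 8 h. The share of all genes lower in all 6 animals was not counted. The median over all genes was also lower in each of the 6, with changes of -0.20 to -0.45 at 4 h and -0.16 to -0.38 at 8 h.

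At 4 and 8 h the median fall was close to that of all genes. The median member changed by -0.01, -0.31 and -0.32 log2 at 2, 4 and 8 h, which is -19.5% and -19.9% on the linear scale at the later hours. The median over all genes changed by -0.18, -0.29 and -0.27. The arrays' own medians moved too, and with every array centred on its median the members' median change was 0.05, -0.05 and -0.04, so its sign at 2 h turned and its falls at 4 and 8 h became small. With centred arrays 11 members fell and 5 rose at 4 h, against 16.8% and 15.4% of all genes. At 8 h 5 fell and 3 rose with centred arrays, against 9.83% and 13.7%. Over all comparisons, 34 calls on named members, most of them described below, were lost with centred arrays. With quantile normalization the medians were -0.26, -0.37 and -0.38, and 22, 33 and 34 members fell, against 19.2%, 20.4% and 15% of all genes. The median over all genes was then -0.09, -0.06 and -0.06.

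**Figure D1:**
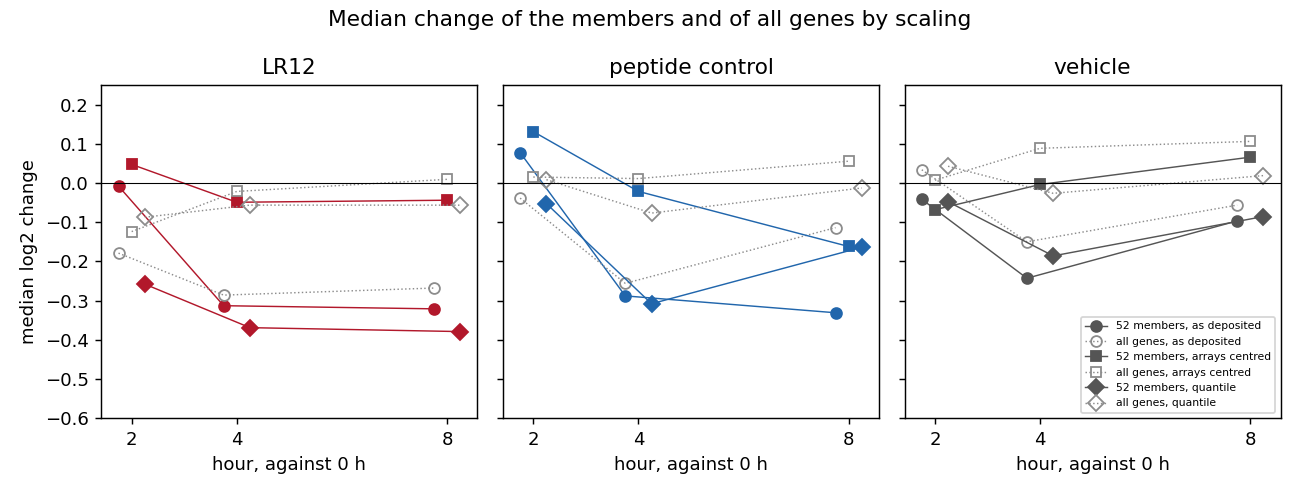
Median log2 change from 0 h (vertical axis) of the 52 members (filled, coloured) and of all 16020 genes (open, grey) at 2, 4 and 8 h for LR12, peptide control and vehicle, with the deposited scale (circles), arrays centred on their median (squares) and quantile normalization (diamonds). In LR12 at 4 h the members' median was -0.31 as deposited, -0.05 centred and -0.37 with quantile normalization.

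RPL36, a protein of the large subunit, fell early and stayed low. Its lowest, median and highest values in the 6 LR12 animals were 11.46, 11.56 and 12.24 log2 at 2 h and 11.18, 11.26 and 11.88 at 4 h, against 12.33, 12.51 and 12.78 at 0 h. Every value at 2, 4 and 8 h lay below every value at 0 h, and the highest at 2 and 4 h was that of Y31309. The change was -0.86 ± 0.16 (SE) at 2 h (limma adjusted p = 1.95e-05), -1.15 ± 0.16 at 4 h (limma adjusted p = 1.26e-07) and -0.87 ± 0.16 at 8 h (limma adjusted p = 3.47e-05). At 4 h its intensity fell by 54.8%. RPL36 was also lower on the high-control arrays, by -0.31 log2 (limma adjusted p = 9.28e-04), whose part in the result was not tested, and its falls were called with that split as a covariate.

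RPL3, which lies close to the peptidyl transferase centre, had the largest mean falls in LR12 but split the animals. Its values were 11.03, 11.28 and 13.37 log2 at 4 h (lowest, median, highest) against 12.75, 12.91 and 13.51 at 0 h. Y31309 and Y31311 were the highest at every hour, 0 h included, and the groups overlapped through Y31309. The change was -0.86 ± 0.34 at 2 h (limma adjusted p = 0.0435), -1.23 ± 0.34 at 4 h (limma adjusted p = 0.00298) and -1.10 ± 0.34 at 8 h (limma adjusted p = 0.0113). The call at 2 h was lost without Y31310, Y31312, Y31313 or Y31314, with adjusted p up to 0.122, and the calls at 4 and 8 h held without any one animal.

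RPL35, next to the exit of the nascent chain, reached 11.29, 11.56 and 12.14 log2 at 4 h in LR12 against 12.28, 12.51 and 12.60 at 0 h. The hours did not overlap. The change was -0.44 ± 0.15 at 2 h (limma adjusted p = 0.0211), lost without Y31310 or Y31313, then -0.87 ± 0.15 at 4 h (limma adjusted p = 9.93e-06) and -0.73 ± 0.15 at 8 h (limma adjusted p = 2.44e-04). Of the small subunit, RPS15 and RPS21 also fell at 2 h. RPS15, in the head of the subunit, changed by -0.55, -0.69 and -0.49 at 2, 4 and 8 h, and RPS21 by -0.58, -0.69 and -0.61, each called at all 3 hours. RPS15 was also lower on the high-control arrays, by -0.23 log2 (limma adjusted p = 0.0096), whose part in its falls was not tested. The RPS21 calls at 2 and 8 h were each lost without 1 of 3 animals (Y31311, Y31313 or Y31314 at 2 h, and Y31309, Y31311 or Y31313 at 8 h).

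RPL22, which is required for the development of most T cells in mice, fell late. Its values in LR12 were 12.08, 12.35 and 12.53 log2 at 4 h and 12.21, 12.40 and 12.63 at 8 h, against 12.97, 13.05 and 13.24 at 0 h. Neither later hour overlapped with 0 h, and all 6 animals were lower at both. The change was -0.75 ± 0.11 at 4 h (limma adjusted p = 4.41e-07) and -0.65 ± 0.11 at 8 h (limma adjusted p = 1.27e-05). Its intensity fell by 40.4% at 4 h and fell by 36.3% at 8 h. At 2 h it was -0.08 ± 0.11 (limma adjusted p = 0.621). Other large falls at 4 and 8 h were those of RPL37 (-0.79 and -0.71), RPL29 (-0.76 and -0.74), RPL32 (-0.76 and -0.71) and RPL18 (-0.85 and -0.67), all of the large subunit, and of RPS12 (-0.69 and -0.50) of the small subunit. RPL32 was named after its values were seen. Each of these genes was lower in all 6 animals at both hours. RPL18 at 8 h lost its call without Y31312 (limma adjusted p = 0.0589).

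**Figure D2:**
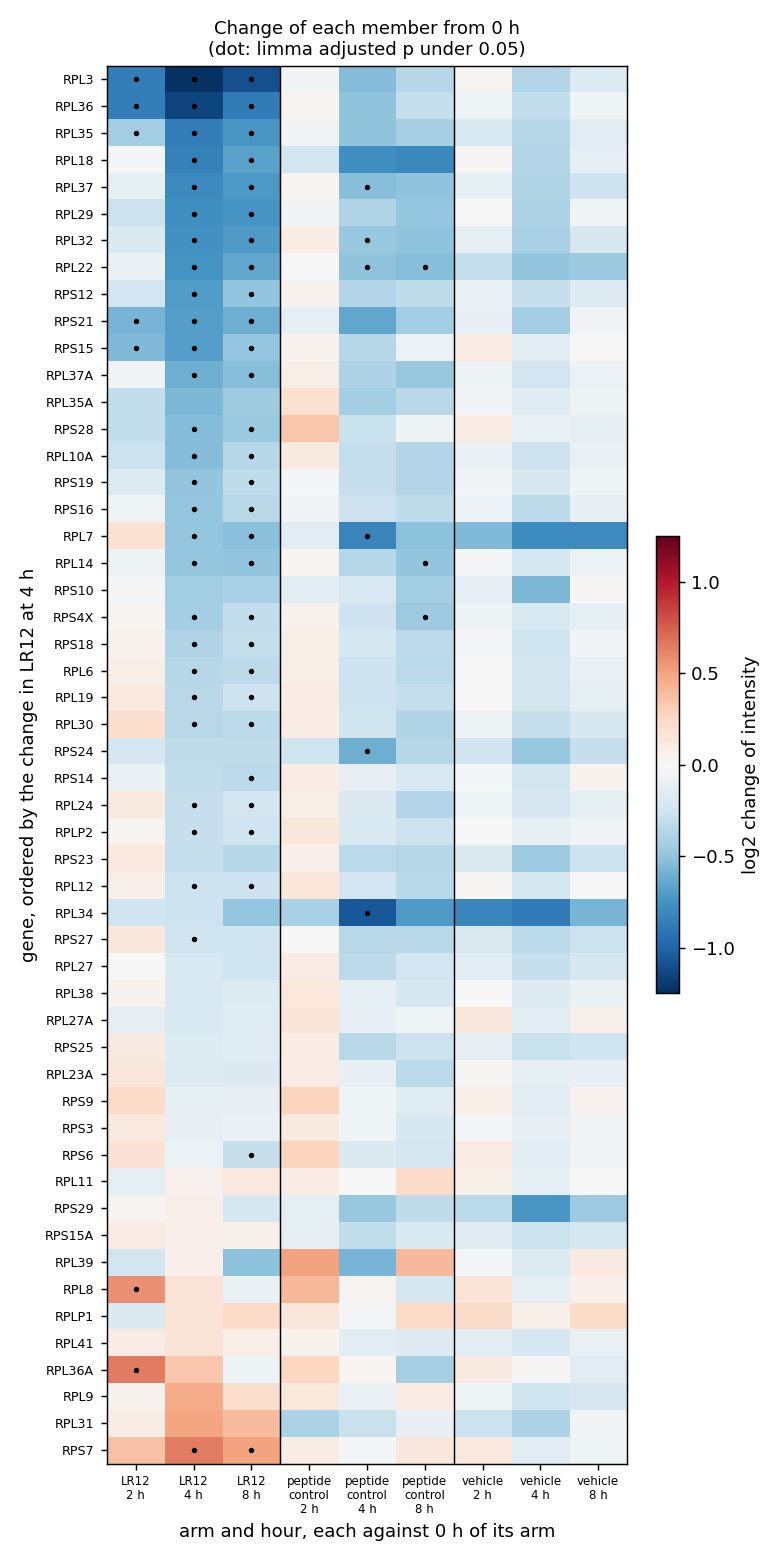
Log2 change from 0 h (colour, blue lower and red higher) of each of the 52 members (rows, ordered by LR12 at 4 h) at 2, 4 and 8 h in LR12, peptide control and vehicle (columns), with a dot where the limma adjusted p was below 0.05. The LR12 columns at 4 and 8 h hold 27 and 28 falls and 1 rise each, and the vehicle columns hold no dot.

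Several members were listed for their known roles. RPS19, which is mutated in Diamond-Blackfan anaemia and matures the small subunit, had values of 13.00, 13.05 and 13.38 log2 at 4 h in LR12 against 13.51, 13.58 and 13.71 at 0 h. The hours did not overlap, and it changed by -0.49 ± 0.09 at 4 h (limma adjusted p = 3.63e-05) and -0.32 ± 0.09 at 8 h (limma adjusted p = 0.00777). RPS4X, encoded on the X chromosome, changed by -0.43 at 4 h and -0.31 at 8 h, the call at 8 h being lost without Y31312. RPLP2, the partner of RPLP1 in the stalk, changed by -0.29 at 4 h and -0.25 at 8 h, and the 8 h change was 0.03 with centred arrays. Its 8 h call was lost without Y31310 or Y31311, with adjusted p up to 0.0718. RPS6, the substrate of the S6 kinases, fell at 8 h alone (-0.29 ± 0.10, limma adjusted p = 0.0279), a call lost without Y31309, Y31311 or Y31313.

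RPS3, RPL11, RPL41 and RPLP1 were called in no change from 0 h, among 18 such members, 11 of the large and 7 of the small subunit. RPS3, at the entry of the mRNA channel, changed by -0.10 at 4 h and -0.08 at 8 h in LR12. RPL11, which binds MDM2 together with RPL5 and 5S ribosomal RNA, changed by 0.06 and 0.13 at these hours. RPL41, the smallest ribosomal protein, changed by 0.16 and 0.08, and RPLP1 by 0.16 and 0.24. The changes of the 18 ran from -0.56 to 0.50 at 4 h, so the set holds values as far from 0 as some that were called.

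RPS7 rose in LR12 at 4 and 8 h. Its values were 12.18, 12.64 and 12.89 log2 at 4 h, against 11.67, 11.95 and 12.15 at 0 h. All 6 animals were higher at 4 h, and the hours did not overlap. The change was 0.64 ± 0.20 at 4 h (limma adjusted p = 0.00789), an intensity 55.8% higher, and 0.51 ± 0.20 at 8 h (limma adjusted p = 0.0457). The 4 h call was lost without Y31310 (limma adjusted p = 0.0536) and the 8 h call without Y31310, Y31311, Y31312 or Y31314 (up to 0.229). At 4 h RPS7 changed by -0.03 ± 0.24 in the peptide control and -0.13 ± 0.24 in vehicle, and neither was called.

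RPL8, at the peptidyl transferase centre, rose at 2 h alone. Its LR12 values were 13.16, 13.41 and 13.76 log2 at 2 h, against 12.67, 12.86 and 13.07 at 0 h, with no overlap. The change was 0.57 ± 0.14 (limma adjusted p = 8.47e-04), an intensity 48.5% higher, and by 8 h it was -0.09 ± 0.14. In the peptide control RPL8 changed by 0.41 ± 0.17 at 2 h, higher in 4 of 4 animals but not called (limma adjusted p = 0.185). The dim RPL36A, at the exit site of tRNA, rose by 0.65 ± 0.21 at 2 h in LR12 (limma adjusted p = 0.0143), a call lost without Y31312 or Y31313.

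**Figure D3:**
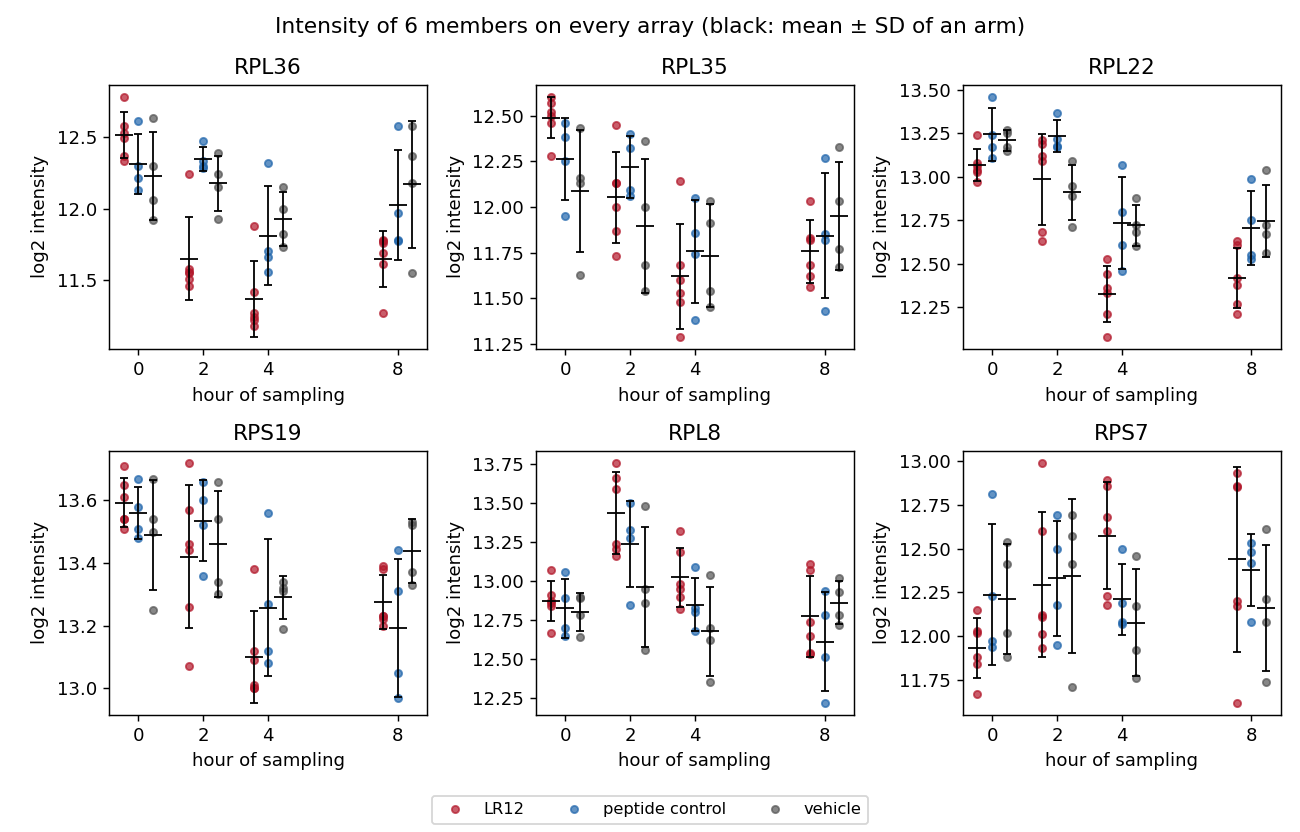
Log2 intensity (vertical axis) of RPL36, RPL35, RPL22, RPS19, RPL8 and RPS7 on every array by hour (horizontal axis), with LR12 in red, peptide control in blue and vehicle in grey from left to right at each hour, and each arm's mean ± SD in black. In LR12 RPL36 lay between 11.18 and 11.88 at 4 h, against 12.33 to 12.78 at 0 h, and RPS7 lay higher at 4 h than at 0 h.

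The peptide control shared the later falls in size, with fewer calls from its 4 animals. No member was called at 2 h, against 1.1% of all genes that fell and 2.2% that rose, and 3 members had an unadjusted p below 0.05, against 14.7% of all genes. At 4 h 6 members fell and 0 rose, against 2.95% and 1.9% of all genes. At 8 h 3 fell and 0 rose, against 0.243% and 0.487%. With centred arrays no member was called at 4 or 8 h, against 5.01% and 1.14% of all genes called in either direction, and with quantile normalization none at 8 h, against 1.44%. The median member changed by 0.08, -0.29 and -0.33 log2 at 2, 4 and 8 h, against -0.04, -0.26 and -0.11 for all genes, and the change at 2 h was -0.05 with quantile normalization. With centred arrays it was -0.02 at 4 h and -0.16 at 8 h. At 4 h 49 members and at 8 h 47 were below 0, with the share of all genes below 0 not counted.

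These counts rested on single animals. The members' median in Y31305 was 13.10, 13.09, 13.10 and 13.09 log2 at 0, 2, 4 and 8 h, while in the other 3 it changed by -0.49, -0.23 and -0.45 at 4 h and by -0.57, -0.41 and -0.32 at 8 h (Y31306, Y31307 and Y31308 in turn). Without Y31305 15 members fell at 4 h and 17 at 8 h, against 8.2% and 1.49% of all genes. Without any one of the other 3, no member was called at either hour. With the animal as a replicate block 14 fell at 4 h and 12 at 8 h, against 10.5% and 1.92%.

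The largest called falls in the peptide control at 4 h were those of RPL34 and RPL7, which changed by -0.26 (not called) and -0.49 (called, but not without Y31313) in LR12. RPL34, a large subunit protein, had 10.47, 10.77, 11.09 and 11.19 log2 at 4 h against 11.86, 11.98, 12.07 and 11.85 at 0 h, a change of -1.06 ± 0.33 (limma adjusted p = 0.0462). RPL7, also of the large subunit, had 12.16, 11.73, 12.06 and 12.13 at 4 h against 12.84, 12.80, 12.93 and 12.82 at 0 h, a change of -0.83 ± 0.18 (limma adjusted p = 0.0112). Neither gene's hours overlapped. RPS24 (-0.61), RPL37 (-0.53) and RPL22 (-0.51) fell as well at 4 h. At 8 h RPL22 (-0.53), RPL14 (-0.49) and RPS4X (-0.46) fell. Each of these calls was lost without Y31306, Y31307 or Y31308, and that of RPL34 also without Y31305.

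In vehicle no member was called at 2, 4 or 8 h. Of all genes 0% fell and 0% rose at 2 h. At 4 h 0.0125% fell and 0% rose, while the shares at 8 h were 0.025% that fell and 0.0125% that rose. At an unadjusted p below 0.05 there were 3, 14 and 3 members, against 6.29%, 9.38% and 6.23% of all genes. The median member changed by -0.04, -0.24 and -0.10 log2, against 0.03, -0.15 and -0.06 for all genes. With centred arrays the change was -0.0039 at 4 h and 0.07 at 8 h. On the deposited scale 50 of 52 members were below 0 at 4 h, and 34 were lower in all 4 animals. The shares of all genes for these 2 counts were not taken. The median over all genes was also lower at 4 h in each of the 4 animals, with changes of -0.03 to -0.25. RPL34 changed by -0.89 ± 0.33 (limma adjusted p = 0.367) and RPL7 by -0.78 ± 0.18 (limma adjusted p = 0.105) at 4 h, and RPL22 by -0.49 ± 0.13 (limma adjusted p = 0.176). With the animal as a block RPL7 and RPL22 fell at 4 h and RPL7 at 8 h, 2 and 1 members, against 0.268% and 0.112% of all genes.

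Member by member, the changes in LR12 and the peptide control, which share no arrays, were set side by side. At 2 h their correlation over the 52 members was 0.239, against 0.68 between peptide control and vehicle. Between LR12 and the peptide control it was 0.551 at 4 h and 0.584 at 8 h, with rank correlations of 0.65 and 0.634, and 41 and 44 members were below 0 in both. The share of all genes below 0 in both was not counted. Between peptide control and vehicle the correlation was 0.763 at 4 h and 0.511 at 8 h, and between LR12 and vehicle 0.284 and 0.238. These are descriptions over genes, which share probes and arrays and are no replicates. At 4 h RPL3 changed by -1.23 in LR12 against -0.55 in the peptide control, RPL36 by -1.15 against -0.50, RPS7 by 0.64 against -0.03 and RPL34 by -0.26 against -1.06.

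**Figure D4:**
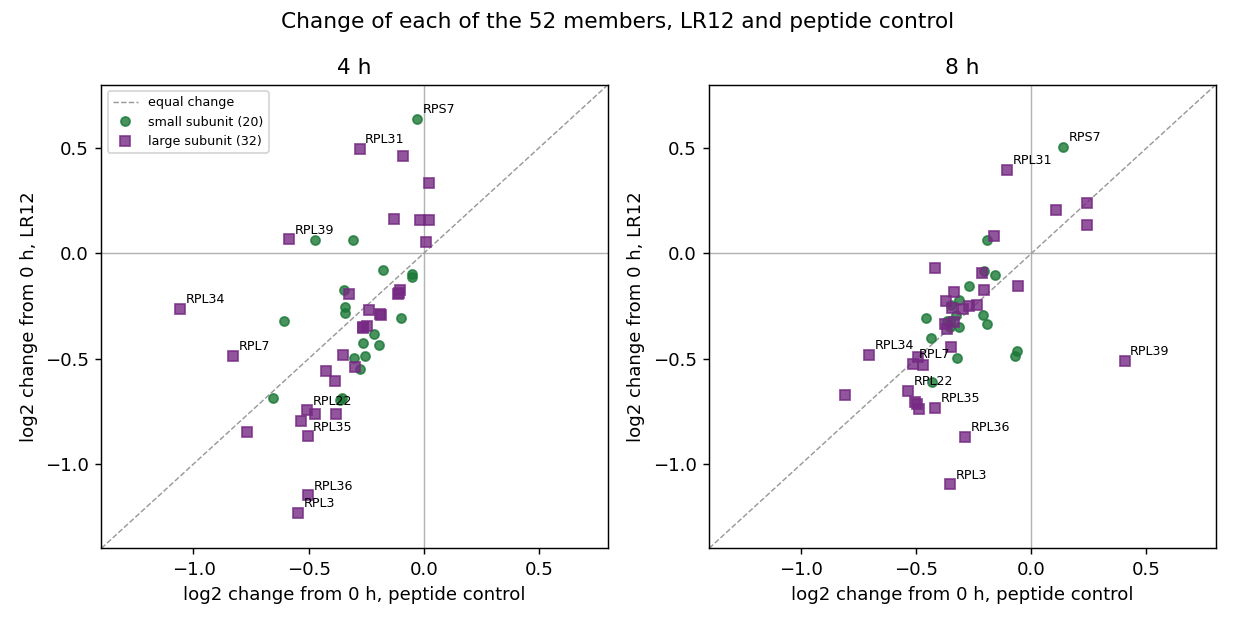
Log2 change from 0 h of each of the 52 members in LR12 (vertical axis) against peptide control (horizontal axis) at 4 and 8 h, with small subunit members as circles, large subunit members as squares and the dashed line marking equal change. At 4 h 41 members lie below 0 in both arms, and RPL36 and RPL3 lie below -1 in LR12 alone.

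The arms were then compared at the same hour. At 0 h no member was called in any of the 3 comparisons, against 0%, 0.0187% and 0% of all genes called in either direction for LR12 over peptide control, LR12 over vehicle and peptide control over vehicle. At an unadjusted p below 0.05 these had 7, 3 and 1 members, against 4.76%, 4.43% and 2.7% of all genes. At 2 h LR12 over the peptide control gave 2 members, both lower, against 2.95% of all genes. RPL36 had 11.46, 11.56 and 12.24 log2 in LR12 (lowest, median, highest), against 12.47, 12.28, 12.30 and 12.33 in the peptide control, a difference of -0.69 ± 0.17 (limma adjusted p = 0.0205). RPS21 had 10.73, 11.15 and 11.61 in LR12, against 12.41, 11.90, 11.59 and 12.48, a difference of -0.92 ± 0.23 (limma adjusted p = 0.0206). At 0 h RPS21 already differed by -0.46 ± 0.23 (not called), and its difference of changes to 2 h was -0.47 ± 0.33 (limma adjusted p = 0.595). The RPL36 values did not overlap between the arms, and the RPS21 values did. The RPL36 call was lost without any one of 8 of the 10 animals (adjusted p up to 0.0619; all but Y31309 and Y31311), and the RPS21 call without Y31305, Y31308, Y31313 or Y31314. With the mean of its probe sets, of which the second is dim, the RPL36 difference was 0.026. With centred arrays neither was called, against 0.768% of all genes.

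At 4 and 8 h no member was called for LR12 over the peptide control, against 1.35% and 0.0187% of all genes, with 6 members at an unadjusted p below 0.05 at each hour, against 16% and 10.4%. Without Y31309 3 members were called at 4 h and 1 at 8 h, against 2.66% and 0.393% of all genes. The peptide control over vehicle gave 0 members at 2, 4 and 8 h, against 0%, 0.00624% and 0% of all genes, and 6, 2 and 8 at an unadjusted p below 0.05, against 8.36%, 11.3% and 7.2%. Without Y31303, 1 was called at 2 h, against 3.98%.

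LR12 over vehicle gave 5 members at 2 h, 4 at 4 h and 1 at 8 h, against 15.9%, 11.9% and 2.72% of all genes called in either direction. With centred arrays 3 were called at 2 h and 0 at 8 h, against 12.7% and 1.27% of all genes. At 4 h 4 members fell and 0 rose with centred arrays, against 6.95% and 3.15% of all genes. With quantile normalization the counts were 9, 9 and 8, against 14.1%, 10% and 2.15% of all genes. RPL3 was lower in LR12 at all 3 hours, by -1.34, -1.31 and -1.37 (limma adjusted p = 0.0109, 0.0175 and 0.0377). At 2 h it had 11.46, 11.72 and 13.68 log2 in LR12, against 13.57, 13.58, 13.32 and 13.48 in vehicle, and the arms overlapped through Y31309. At 0 h, before these hours, it already differed by -0.44 (not called). RPL36 was lower at 2 h (-0.52) and 4 h (-0.56), but 0.355 and 0.332 with the mean of its probe sets. Also lower were RPS15 at 2 h (-0.49), and RPL22 and RPS12 at 4 h (-0.39 each). RPL36A (0.77) and RPL8 (0.47) were higher at 2 h. Of these 10 calls, only those of RPL3 at 2 h and RPS12 at 4 h held without each of the 10 animals in turn. RPL36 was lost without any one of 8 animals at 2 h (all but Y31301 and Y31309) and of 7 at 4 h (all but Y31303, Y31309 and Y31314). RPL3 was lost without Y31301, Y31302, Y31304 or Y31312 at 4 h, and at 8 h also without Y31310, Y31313 or Y31314. RPL22 was lost without Y31301, Y31302 or Y31312, and RPS15 without Y31303, Y31304 or Y31310. RPL36A was lost without Y31302 or Y31304, and RPL8 without Y31301, Y31302, Y31304, Y31310, Y31312 or Y31314.

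The changes from 0 h in LR12 were set against those in each control arm. No member differed in any of the 6 comparisons, against 0%, 0% and 0% of all genes at 2, 4 and 8 h for LR12 minus peptide control and 2.17%, 0.218% and 0% for LR12 minus vehicle. At an unadjusted p below 0.05 there were 3, 4 and 1 members against the peptide control and 4, 10 and 9 against vehicle. Of all genes these were 11.9%, 7.13% and 5.52% against the peptide control and 18.9%, 16.9% and 13.6% against vehicle. The median difference over members was -0.08, -0.08 and 0.02 against the peptide control and 0.06, -0.06 and -0.19 against vehicle, while with quantile normalization the 8 h value against the peptide control was -0.205 and the 2 h value against vehicle -0.162. With the animal as a replicate block RPL36 differed from the peptide control at 2 h (-0.90, limma adjusted p = 0.0265) and from vehicle at 2, 4 and 8 h (-0.81, -0.84 and -0.81). RPS15 (-0.65) and RPL7 (0.73) also differed from vehicle at 2 h and RPL29 (-0.69) at 8 h with the block. These are 1 member against the peptide control at 2 h, when 1.17% of all genes were called, and 3, 1 and 2 against vehicle at 2, 4 and 8 h, when 10.5%, 7.02% and 1.74% were. A fall called in LR12 and not in a control arm is thus, without the block, not shown to differ between them.

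Other probe sets of the same genes were compared with the chosen ones. The members had 53 further kept probe sets, of 30 genes, and 50 of them had the sign of the chosen one in LR12 at 4 h and 47 at 8 h. Among the 22 bright ones, with a mean of at least 10 log2, all 22 had the same sign at both hours. At 2 h the agreement was lower, with 35 of 53 in LR12 (16 of the 22 bright ones), 32 of 53 in the peptide control and 26 of 53 in vehicle. All 5 probe sets of RPL22 fell at 4 h, with changes between -0.71 and -2.48. The second probe set of RPS7 rose by 1.004 at 4 h (limma adjusted p = 0.0112 over all probe sets). The second of RPL36 was near the bottom of the scale, with a mean of 2.86 log2, and changed by 0.74 (limma adjusted p = 0.416). Of the 64 probe sets that list a ribosomal protein gene with other symbols, 59 were kept. In LR12 30 of these fell and 2 rose at 4 h, with a median of -0.39, when 20.5% of all probe sets fell.

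Markers of blood cell types moved too, and many were called at 2 h already, when 5 members fell and 2 rose. In LR12 at 2 h, 13 of 17 T cell markers (median -1.32) and 11 of 13 B cell markers (median -1.51) fell. Of the NK and cytotoxic markers 6 of 13 fell, and of the neutrophil markers 12 of 16 rose (median 0.92). No marker of these lists was called the other way. At that hour 21.9% of all genes fell and 10.1% rose. In LR12 17 of 17 T cell markers fell at 4 h and 17 of 17 at 8 h, with median changes of -2.29 and -1.78 log2. Of all genes 26.0% fell and 10.8% rose at 4 h in LR12, and 20.4% fell at 8 h. The summed intensity of the T cell markers ran from 1915 to 5586 at 4 h and 2759 to 7436 at 8 h in LR12, against 12780 to 21350 at 0 h. In the peptide control 1 of 17 fell at 4 h (median -1.18), with sums of 4329 to 9332 against 10180 to 16590 at 0 h. In vehicle none was called at 4 h (median -0.70), with sums of 5992 to 11620 against 10750 to 22870 at 0 h. B cell markers fell in 7 of 13 at 4 h in LR12, with sums of 1253 to 6342 against 3055 to 9852 at 0 h. Markers of NK and cytotoxic cells fell in 8 of 13 at 4 h, with sums of 2379 to 5496 against 3879 to 7761 at 0 h. The median of these sums was 4214 at 4 h and 4408 at 0 h, so the summed signal changed little at 4 h. At 8 h 7 of 13 of these markers fell, and the sums were 1393 to 2416 (median 2006), below the 0 h range. Neutrophil markers rose in 13 of 16 at 4 h in LR12, and their sums were 44060 to 52080 against 14770 to 33450 at 0 h. Their median change at 4 h was 0.91 in LR12, 0.38 in the peptide control and 0.57 in vehicle. In the peptide control 1 of 16 rose at 4 h and in vehicle 0, against 1.9% and 0% of all genes.

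Of the other lists in LR12 at 4 h, monocyte markers fell in 3 and rose in 5 of 9, erythroid markers were called in 0 of 11 and platelet markers fell in 4 of 10. At 8 h 5 of 11 erythroid markers fell, against 20.4% of all genes. No marker of any list was at 0 on any array. On the high-control arrays, adjusted for arm and hour, 10 of 17 T cell markers were lower (median -0.469). The part of cell composition and of these arrays in the members' changes was not tested. In whole blood, fewer cells of a type and less RNA per cell cannot be told apart.

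A list of elongation factors and other genes whose mRNAs share the control of ribosomal protein mRNAs had 11 measured genes. In LR12 2 fell and 2 rose at 2 h, 7 fell at 4 h and 7 fell at 8 h. The median changes were -0.03, -0.56 and -0.49, and the shares of all genes that fell are those given above for LR12 (21.9%, 26.0% and 20.4%). In vehicle none was called, against at most 0.025% of all genes that fell and 0.0125% that rose. At 4 h EEF2, the translocation factor, changed by -1.41, HNRNPA1, an RNA-binding protein, by -1.19, NPM1, a nucleolar chaperone, by -0.99, and PABPC1, the poly(A)-binding protein, by -0.63. EEF1A1, which delivers aminoacyl-tRNA, and BTF3 rose at 2 h by 0.26 and 0.36. In the peptide control NAP1L1 fell at 4 h (-0.39), and PABPC1 (-0.61) and NAP1L1 (-0.49) fell at 8 h.

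Genes of ribosome assembly had many calls at 2 h already. Of 38 measured, 19 fell and 2 rose at 2 h in LR12, 20 fell and 1 rose at 4 h, and 15 fell and 1 rose at 8 h, with medians of -0.82, -0.98 and -0.76. Of all genes 21.9%, 26.0% and 20.4% fell and 10.1%, 10.8% and 8.65% rose at these hours. At 2 h EFL1, which releases a late assembly factor, changed by -2.18, DDX10 by -1.73, UTP18 by -1.66 and FBL, the methyltransferase of ribosomal RNA, by -1.47. RRP12, a factor of subunit export, rose at all 3 hours, by 1.89, 2.41 and 2.41, and DDX21, a nucleolar helicase, rose by 1.21 at 2 h. No gene of this list was called in the peptide control or vehicle. Few genes of any kind were called there. At most 2.95% of all genes fell and 2.2% rose at one hour in the peptide control, and at most 0.025% and 0.0125% in vehicle.

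Regulators of ribosomal protein genes and mRNAs moved both ways. Of 19 measured, 7 fell and 2 rose at 2 h, 8 fell and 3 rose at 4 h, and 7 fell and 2 rose at 8 h in LR12. The shares of all genes were 21.9%, 26.0% and 20.4% that fell and 10.1%, 10.8% and 8.65% that rose. At 4 h TSC2, a brake on mTOR, changed by -1.54, MYC, an activator of ribosome production, by -1.33, EIF4EBP1, a repressor of translation, by -1.32, and EIF2AK4, a sensor of amino acid lack, by -1.17. GABPA, a transcription factor, and EIF4E, the cap-binding protein, rose at 4 h by 1.04 and 0.87. EIF4E also rose in the peptide control, by 0.52 at 4 h and 0.60 at 8 h. Of 7 measured paralogs outside the rule, RPL22L1, the paralog of RPL22, fell at 4 h (-0.83) and 8 h (-0.75) in LR12, and RPL26L1 fell at 4 h (-0.54). RPS27L fell in the peptide control at 4 h (-0.88).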

How the data were processed

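Blood RNA of 14 macaques was read on 56 arrays, and the groups of arm and hour come from the labels. The submitters' processing notes name MAS5 as the source of the deposited intensity values, without a version. They were linear and scaled by the authors, as the mean after trimming 2% per end was 150.0 on every array. Probe names were paired with genes by the platform's annotation, which can be old. Values were put on the log2 scale with no further normalization. A probe set was kept if above the array median on at least 4 arrays. The test was limma 3.58.1 (R 4.3.3), with 1 model of the 12 groups, a variance trend, robust moderation and Benjamini-Hochberg adjustment over 16020 genes. The number of arrays limits the precision.

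Named members were a fixed set of known roles, the 5 largest called falls and rises within each arm, all called members between arms, and the 3 most and least like the members' median. From other lists up to 4 called genes were named per comparison. Members, lists and rules were chosen with earlier results of these data known. Alternatives were centred arrays, quantile normalization, an offset of 16, no filter, the mean of probe sets, the animal as a block, unmoderated trend, the groups compared alone, the control-signal split, and each animal left out. The replicate numbers are the animals: arrays of one animal correlated at 0.18 on average after removing group means (0.103 to 0.328), against -0.0294 between animals. The fits were tested on simulated data. Sequences are not shown here.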

Additional observations from a re-analysis of the deposited data

Results flagged for a closer look

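Of 312 groups examined (25 of the named members and the members' median, 12 groups of 4 or 6 animals each), 6 held an animal far from the others by Dixon's ratio at the 95% level, when chance gives about 1 in 20. RPS18, RPL6, RPL30, RPL39 and RPL32, also named in the text, were not examined. Animal Y31309 stood high in LR12 for RPL36 at 2 h (12.24 log2, next highest 11.58) and 4 h (11.88, next 11.42) and for RPS19 at 4 h (13.38, next 13.12). Animal Y31311 stood low in LR12 at 8 h for RPL36 (11.27, next lowest 11.61) and RPS15 (11.63). Animal Y31303 stood low in vehicle at 8 h for RPL14 (12.98, next 13.39). None of the 25 members examined changed one way in every animal of an arm and the other way in every animal of another.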

How the results depend on the processing

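Counts below are of the 52 members called in either direction, each followed by the percent of all genes called in the same fit. With centred arrays the changes from 0 h in LR12 gave 4 (29.1%), 16 (32.2%) and 8 (23.5%) at 2, 4 and 8 h, and the peptide control 0 (5.01%) and 0 (1.14%) at 4 and 8 h. Centring also gave 0 (0.768%) for LR12 over the peptide control at 2 h and 3 (12.7%) and 0 (1.27%) for LR12 over vehicle at 2 and 8 h. Over all comparisons, 34 calls on named members were lost with centring. It turned RPLP2 in LR12 at 8 h to 0.0259 (limma adjusted p = 0.906). Quantile normalization gave 24 (30.8%) for LR12 at 2 h, 0 (1.44%) for the peptide control at 8 h, 1 (0.886%) for LR12 over the peptide control at 4 h, and 9 (14.1%), 9 (10%) and 8 (2.15%) for LR12 over vehicle at 2, 4 and 8 h. The cause of these moves was not tested.

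With the animal as a replicate block the peptide control gave 14 (15.3%) and 12 (4.29%) at 4 and 8 h, vehicle 2 (0.481%) and 1 (0.144%), and LR12 over vehicle at 8 h 2 (4.64%). The differences of change with the block gave 1 (1.17%) against the peptide control at 2 h and 3 (10.5%), 1 (7.02%) and 2 (1.74%) against vehicle at 2, 4 and 8 h. The low-control arrays alone gave 13 (22.8%) for LR12 at 8 h and, for LR12 over vehicle, 0 (14.7%) at 4 h and 2 (11.5%) at 8 h. The high-control arrays alone gave 1 (0.243%) for the peptide control at 4 h and 0 (0.375%) and 0 (0.231%) for LR12 over vehicle at 4 and 8 h. Both use fewer samples. The split as a covariate gave 5 (2.14%) for the peptide control at 8 h, 5 (6.94%) and 1 (1.64%) for LR12 over the peptide control at 2 and 4 h, and 4 (7.18%) for LR12 over vehicle at 8 h.

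The mean of a gene's probe sets gave 2 (4.01%) and 0 (0.449%) for the peptide control at 4 and 8 h and 1 (2.04%) and 1 (0.599%) for LR12 over the peptide control at 2 and 4 h. It turned RPL36, whose second probe set is dim, to 0.026 over the peptide control at 2 h and to 0.355 and 0.332 over vehicle at 2 and 4 h. Over all comparisons, 26 calls on named members were lost with this mean. Without trend and robust moderation the peptide control gave 2 (3.9%) and 0 (0.574%) at 4 and 8 h, and without the filter 1 (0.501%) at 8 h. With only the groups compared in the fit the peptide control gave 3 (3.99%) and 0 (0.0125%), LR12 over the peptide control 0 (0.00624%) at 2 h, and LR12 over vehicle 1 (10.5%), 0 (5.52%) and 0 (0.0936%) at 2, 4 and 8 h.

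Leaving out each animal gave 4 to 8 for LR12 at 2 h, with 4 (27.1%) without Y31313. The peptide control gave 0 to 15 at 4 h and 0 to 17 at 8 h, the highest without Y31305 (12.1% and 3.48%). LR12 over the peptide control gave 0 to 6, 0 to 3 and 0 to 1 at 2, 4 and 8 h, the highest without Y31309 (8.68%, 2.66% and 0.393%). LR12 over vehicle gave 1 to 6, 1 to 7 and 0 to 10, with 7 (23.2%) and 10 (16.7%) without Y31303. The peptide control over vehicle gave 0 to 1 at 2 h (3.98% without Y31303). LR12 minus vehicle gave 0 to 2 at 2 h (4.34% without Y31309), 0 to 1 at 4 h (6.5% without Y31303) and 0 to 2 at 8 h (1.89% without Y31303). Over all settings 393 counts moved by less than 1.5 times, 34 were larger and 56 smaller. Many comparisons had a count of 0 in the main fit, and a count that stayed at 0 is among the 393. The tally therefore does not measure how stable the other counts were. The deposited values carry no detection calls here, so how far a value stood above background was not tested, and RPL36A and RPL39 were the dimmest members.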
